A study of Homo sapiens with 8 samples.

Results

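The 10 genes described here encode small calcium-binding S100 proteins (S100A4, S100A6, S100A10, S100A11, S100A13 and S100A16) and annexins (ANXA1, ANXA2, ANXA4 and ANXA5). They were chosen by name, as members of these families and with earlier results of these data known. They come from 18693 protein-coding genes with a symbol in the expression tables. The FPKM of all RefSeq mRNA entries of a symbol were summed. FPKM counts sequenced fragments relative to transcript length and to all mapped reads of a library. The tests covered the 10503 genes whose mean across the 8 libraries reached 1 FPKM, and all 10 members were among them.

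The study asked what knockdown (KD) of the lincRNA SLINKY does to mRNA levels in clear cell renal cell carcinoma (ccRCC) cells. A498 and 786-O are established human ccRCC lines, and each was transfected by lipofection with non-target control (NTC) siRNA or with either of 2 siRNAs against SLINKY, at 50 nM for 16 hr by the labels, while the methods of the study give a later time for the isolation of RNA. Each line has 2 NTC libraries, 1 library for siRNA 1 and 1 for siRNA 2, all from total RNA. The labels call all siRNAs pools, while the methods of the study describe 2 independent siRNAs against SLINKY and a pool only for the control. A498 cells were grown in DMEM and 786-O cells in RPMI-1640, so cell line and medium cannot be told apart, and every difference between the lines is between 1 line and 1 other. The siRNAs were transfected separately, but nothing in the sources used here says whether the NTC libraries of a line came from separate cultures, so p-values measure the spread between these libraries, which may be technical in part.

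S100 proteins are small EF-hand proteins that bind calcium, mostly work as dimers and dock onto partner proteins, many of them annexins. Annexins bind acidic phospholipids of membranes when calcium rises, and they act in membrane repair, vesicle traffic and the link between the membrane and actin. S100A10 is the exception among S100 proteins in that it no longer needs calcium, and it is found mostly in a complex with annexin A2 at the plasma membrane. In kidney tubules and kidney cancers both families are expressed by epithelial cells.

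SLINKY itself was lower in every siRNA library than in the NTC libraries of its line. Its level was 14.6 and 16.1 FPKM in the A498 NTC libraries, 1.64 with siRNA 1 and 3.01 with siRNA 2, and in 786-O it was 1.45 and 1.39 FPKM against 0.0569 and 0.594. The depth estimated from the tables was about 25100000 to 64600000 mapped reads per library. The first A498 NTC library stood apart from the rest of its line, with a median absolute log2 difference of 0.108 to 0.142 to the other A498 libraries, against 0.0688 to 0.0809 among those. The kidney lineage factor PAX8 was at 39.2 to 48.1 FPKM in all libraries, while the ccRCC marker CA9 was at 0.559 FPKM or lower. Of the epithelial markers, EPCAM was at 0.236 to 0.324 FPKM in A498 and 3.83 to 4.38 FPKM in 786-O, and KRT19 was at 12.02 to 13.98 and 75.5 to 89.8 FPKM, whereas KRT8 was higher in A498 (644 to 692 against 444 to 518 FPKM). The leukocyte markers PTPRC and CD3E were listed at 0 in every library, but CD68 was at 138 to 151 FPKM in A498 and 1.70 to 5.20 FPKM in 786-O, and no endothelial marker exceeded 0.0385 FPKM. Of the fibroblast markers, LUM was at 0.0208 FPKM or lower in A498 and 0.493 to 0.677 FPKM in 786-O, while DCN and PDGFRA were at 0.0733 FPKM or lower in all libraries. The part of these marker levels in the results was not tested.

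All 6 S100 members lie on the minus strand of chromosome 1 (hg19). S100A10 spans 151955386 to 151966714 and S100A11 152004982 to 152009511. The other 4 are close neighbours, with S100A6 from 153507076 to 153508717, S100A4 from 153516095 to 153518282, S100A16 from 153579367 to 153585514 and S100A13 from 153591276 to 153606568. The annexins are dispersed, with ANXA1 on the plus strand of chromosome 9 (75766781 to 75785307), ANXA2 on the minus strand of chromosome 15 (60639350 to 60690185), ANXA4 on the plus strand of chromosome 2 (69969127 to 70053596) and ANXA5 on the minus strand of chromosome 4 (122589152 to 122618147).

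Promoter sequences of RefSeq, 250 bases before to 50 bases after a start site, were placed on GRCh37 by their single exact match. They are shown for 3 of the neighbours on chromosome 1, whose levels differed between the lines in size or direction, and for ANXA1. Capitals mark TATAAA and GGGCGG, searched on both strands.
S100A16, chr1:153585564-153585863, minus strand: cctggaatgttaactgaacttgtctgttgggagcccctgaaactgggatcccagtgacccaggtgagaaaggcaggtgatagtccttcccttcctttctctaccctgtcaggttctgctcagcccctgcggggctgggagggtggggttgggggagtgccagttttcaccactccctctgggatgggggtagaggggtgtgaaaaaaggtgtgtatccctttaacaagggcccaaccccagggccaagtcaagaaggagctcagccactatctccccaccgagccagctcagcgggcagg
S100A4, chr1:153518233-153518532, minus strand: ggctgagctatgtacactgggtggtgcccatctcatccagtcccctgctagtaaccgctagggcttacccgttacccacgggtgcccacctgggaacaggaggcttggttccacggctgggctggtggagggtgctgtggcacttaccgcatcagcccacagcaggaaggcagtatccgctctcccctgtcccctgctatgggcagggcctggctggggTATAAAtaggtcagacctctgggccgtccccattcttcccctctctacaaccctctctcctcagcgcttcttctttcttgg
S100A6, chr1:153508418-153508717, minus strand: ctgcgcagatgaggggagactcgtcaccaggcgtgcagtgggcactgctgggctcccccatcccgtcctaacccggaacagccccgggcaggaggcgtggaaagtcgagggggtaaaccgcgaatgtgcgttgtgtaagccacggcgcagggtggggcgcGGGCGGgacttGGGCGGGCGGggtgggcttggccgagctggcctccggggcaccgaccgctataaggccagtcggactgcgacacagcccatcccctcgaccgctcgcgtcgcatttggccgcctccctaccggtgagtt
ANXA1, chr9:75766531-75766830, plus strand: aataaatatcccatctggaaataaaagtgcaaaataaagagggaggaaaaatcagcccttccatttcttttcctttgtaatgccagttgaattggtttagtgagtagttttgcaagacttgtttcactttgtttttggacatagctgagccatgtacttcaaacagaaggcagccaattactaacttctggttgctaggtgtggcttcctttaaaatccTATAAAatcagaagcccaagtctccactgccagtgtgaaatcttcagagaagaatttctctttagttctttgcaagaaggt
The S100A16 window held neither motif and 3 CpG dinucleotides, and it is the first of 2 windows listed for this gene. The second, at chr1:153581782-153582081, held 1 copy of GGGCGG and 8 CpG. The S100A4 window held TATAAA at position -31 from the start and 8 CpG, while the S100A6 window held 3 copies of GGGCGG, which overlap in part, and 31 CpG. The ANXA1 window held TATAAA at position -31 and 0 CpG. Among 35116 promoter windows of the same length 11.5% held TATAAA and 45.0% held GGGCGG, and the median number of CpG was 14. The start sites of the windows need not be those of the measured entries. The S100A6 window lies wholly within the span of S100A6 given above, and the first S100A16 window wholly outside that of S100A16.

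The S100 members reached the highest levels of the group. In the order NTC 1, NTC 2, siRNA 1 and siRNA 2, S100A6, whose product is also called calcyclin, was at 2903, 3136, 2874 and 2771 FPKM in A498. In 786-O it was at 1999, 1823, 1771 and 1814 FPKM. In A498 it ranked 7 of all protein-coding genes in every library and in 786-O between 24 and 35. S100A11 (calgizzarin, a partner of annexin A1 in membrane contacts) was at 2558, 2591, 2531 and 2564 FPKM in A498 and at 1801, 1867, 1877 and 1937 FPKM in 786-O. S100A4 (metastasin, which binds non-muscle myosin) was the lowest member, at 6.38, 7.58, 6.30 and 6.17 FPKM in A498 and 1.60, 1.35, 2.12 and 1.65 FPKM in 786-O.

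The order of the levels differed between the lines. In A498 it ran from S100A6 and S100A11 through S100A10, ANXA2, ANXA1, ANXA5, S100A13, ANXA4 and S100A16 to S100A4, and of these neighbours only ANXA1 (696 to 784 FPKM) and ANXA5 (680 to 740 FPKM) had ranges that overlapped. In 786-O the ranges of S100A6 and S100A11 overlapped, as did those of S100A13 (408 to 469 FPKM), S100A16 (391 to 472 FPKM) and ANXA1 (403 to 421 FPKM). The 10 members together held 1.82 to 1.91% of the summed FPKM of protein-coding genes in A498 and 1.34 to 1.37% in 786-O.

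**Figure D1:**
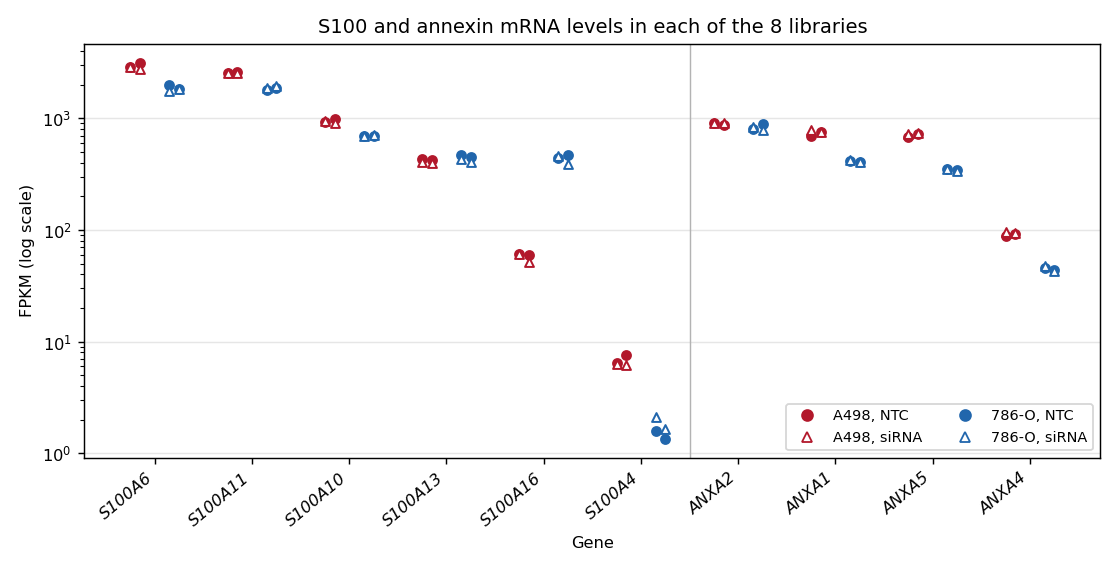
FPKM of each S100 gene (left of the line) and annexin (right) on a log scale, one point per library, with A498 in red and 786-O in blue, filled circles for NTC and open triangles for siRNA libraries. S100A16 is at 51.9 to 60.9 FPKM in A498 and 391 to 472 FPKM in 786-O, while S100A13 and ANXA2 overlap between the lines.

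The first comparison set A498 against 786-O, with the knockdown as a covariate, by limma on log2(FPKM + 0.1) with Benjamini-Hochberg adjustment at 0.05. All 10 members passed, 8 of them higher in A498 and 2 lower. The lines differed in most genes: 83.0% of the 10503 genes tested passed, 40.6% as higher and 42.5% as lower in A498, so a call in itself sets no member apart. The members' median difference was 0.56 on the log2 scale and their median absolute difference 0.76, against -0.017 and 0.50 over all genes tested. The members were chosen with earlier results of these data known, so their medians describe these 10 genes and not the families. The 3 other S100 genes tested had a median difference of 1.01 and the 6 other annexins -0.26. A bulk library cannot tell fewer expressing cells from less mRNA per cell.

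S100A16, a widely expressed EF-hand protein, had the largest difference of the group and was lower in A498. It was at 60.9, 59.6, 60.4 and 51.9 FPKM in A498 and at 440, 472, 458 and 391 FPKM in 786-O, so that every 786-O library lay far above every A498 library. The log2 difference was -2.92 (SE 0.061, limma adjusted p = 6.30e-11), which is 7.55-fold higher in 786-O, and 6.07% of the genes tested had a larger absolute difference.

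S100A4 differed the other way. All 4 A498 libraries lay above all 4 786-O libraries, with a log2 difference of 1.93 (SE 0.12, limma adjusted p = 2.02e-07) or 3.80-fold. It rests on few reads. The 95% interval that Cufflinks gives for its larger entry reached 19.5 to 48.8% to either side of the value. Counting error alone would give this at 16.8 to 105 reads. A second entry, NM_019554, took 24.9% of its FPKM in the A498 siRNA 2 library (1.54 of 6.17 FPKM) and almost none in the other libraries.

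S100A6, S100A11 and S100A10 were moderately higher in A498. S100A6 differed by 0.66 (SE 0.039), S100A11 by 0.45 (SE 0.030) and S100A10 by 0.44 (SE 0.032) on the log2 scale, or 1.58-, 1.37- and 1.35-fold. S100A10 was at 924, 984, 947 and 915 FPKM in A498 and at 693, 691, 698 and 703 FPKM in 786-O. For these 3 genes the A498 libraries did not overlap those of 786-O, and the largest limma adjusted p was 6.21e-07.

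3 of the 4 annexins were 1.82- to 2.07-fold higher in A498. ANXA1, which limits inflammation through formyl peptide receptors, was at 696, 755, 784 and 760 FPKM in A498 and 415, 408, 421 and 403 FPKM in 786-O. ANXA5, the protein used as a probe of exposed phosphatidylserine, was at 680, 725, 722 and 740 FPKM against 353, 345, 354 and 339 FPKM. ANXA4, an annexin of epithelial membranes, was at 88.1, 92.1, 96.7 and 94.8 FPKM against 45.3, 43.6, 47.5 and 42.9 FPKM. Their log2 differences were 0.86 (SE 0.038), 1.04 (SE 0.035) and 1.05 (SE 0.042), with a largest limma adjusted p of 1.31e-08, and none of the 3 overlapped between the lines.

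ANXA2 and S100A13 were nearly level. ANXA2, the partner of S100A10, was at 899, 865, 902 and 902 FPKM in A498 and 795, 885, 840 and 791 FPKM in 786-O, a log2 difference of 0.11 (SE 0.042, limma adjusted p = 0.0338). S100A13, which takes part in the release of signal proteins that lack a leader peptide, was at 433, 425, 404 and 395 FPKM in A498 and 469, 448, 434 and 408 FPKM in 786-O, a log2 difference of -0.084 (SE 0.033, limma adjusted p = 0.0380). Both overlapped between the lines, and 87.9% and 90.6% of the genes tested had a larger absolute difference. The call of S100A13 was lost in 11 of 21 alternatives, among them leaving out any single A498 library, 786-O NTC 1 or 786-O siRNA 1 (adjusted p 0.0547 to 0.117), and that of ANXA2 in 9 of 21, among them leaving out A498 NTC 1, A498 siRNA 1, A498 siRNA 2, 786-O NTC 1 or 786-O siRNA 2 (adjusted p 0.0712 to 0.0971).

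Counted without a model, 7 members were higher in all 4 A498 libraries than in any 786-O library and 1, S100A16, was lower in all of them. Of all genes tested, 37.7% lay wholly above and 39.6% wholly below. The ratio of S100A10 to ANXA2, whose products form a complex, was 1.01 to 1.14 in A498 and 0.781 to 0.889 in 786-O. This is a ratio of mRNA FPKM and does not give that of the proteins. The ANXA2 level in it is uncertain, since copies of ANXA2 may share its reads. Along chromosome 1 the close neighbours went in different directions, since S100A6 and S100A4 were higher in A498, S100A16 was lower, and S100A13 differed by 1.06-fold.

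**Figure D2:**
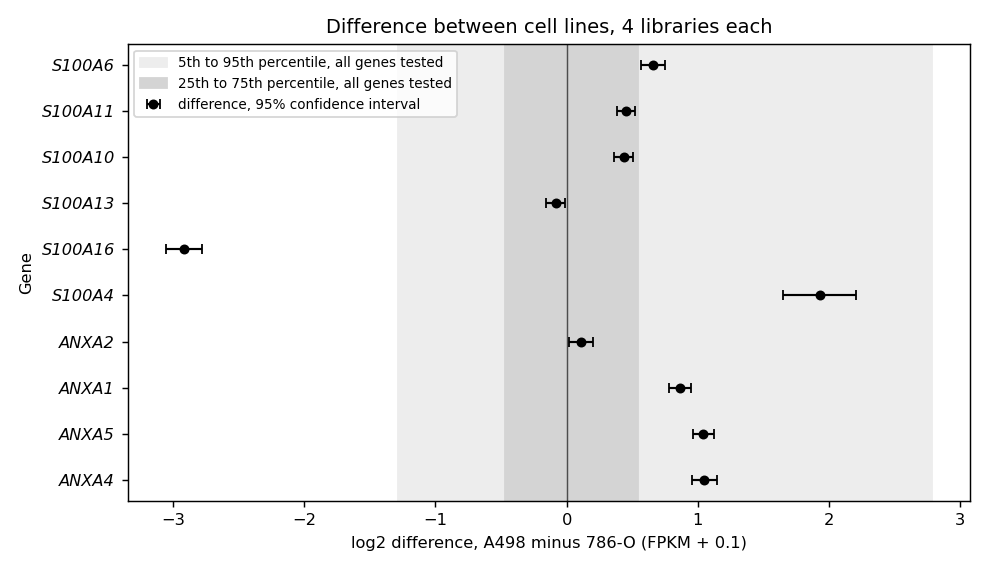
Difference of each gene between the lines, as log2(FPKM + 0.1) in A498 minus that in 786-O, with the 95% confidence interval of limma (n = 4 libraries per line). Grey bands give the middle 50% (-0.47 to 0.54) and the middle 90% (-1.29 to 2.79) of all genes tested, and only S100A16, at -2.92, lies outside the wider band.

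The expression tables list 4 RefSeq mRNA entries for ANXA2 and 5 for S100A13, and the nearly level sums held entries that differed between the lines. When each entry was tested on its own, which was chosen after seeing the data, 67.7% of 13543 entries passed between the lines. The main ANXA2 entry, NM_004039, took 86.4 to 87.9% of the gene in A498 and 91.8 to 93.3% in 786-O and differed by 0.026 (SE 0.046, limma adjusted p = 0.646). The entry NM_001002857 was at 105 ± 5.65 FPKM in A498 and 57.7 ± 2.02 FPKM in 786-O (mean ± SD, n = 4 each), a log2 difference of 0.86 (SE 0.040, limma adjusted p = 2.35e-06). NM_001136015 passed (log2 difference 1.00, SE 0.27, limma adjusted p = 0.0150), but its libraries overlapped, at 4.30 to 8.32 FPKM in A498 and 2.31 to 4.35 FPKM in 786-O. NM_001002858 did not pass (log2 difference 0.49, limma adjusted p = 0.601). In S100A13 the main entry, NM_001024212, was lower in A498 at 303 ± 17.0 FPKM against 360 ± 22.4 FPKM (log2 difference -0.25, SE 0.034, limma adjusted p = 0.000561), while NM_001024211 was higher at 70.4 ± 6.75 against 42.3 ± 1.54 FPKM (log2 difference 0.73, SE 0.061, limma adjusted p = 4.36e-05). NM_001024210 and NM_005979 were also higher in A498, and NM_001024213 did not pass (log2 difference -0.12, limma adjusted p = 0.594). NM_005979 was low, at 3.08 to 6.84 FPKM in A498 and 1.19 to 2.76 FPKM in 786-O. Its Cufflinks interval was 0 to 5.45 FPKM in 786-O NTC 1 and 0 to 5.07 FPKM in 786-O siRNA 2. Cufflinks divides reads among overlapping entries, so the values of all these entries are less certain than the sums.

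**Figure D3:**
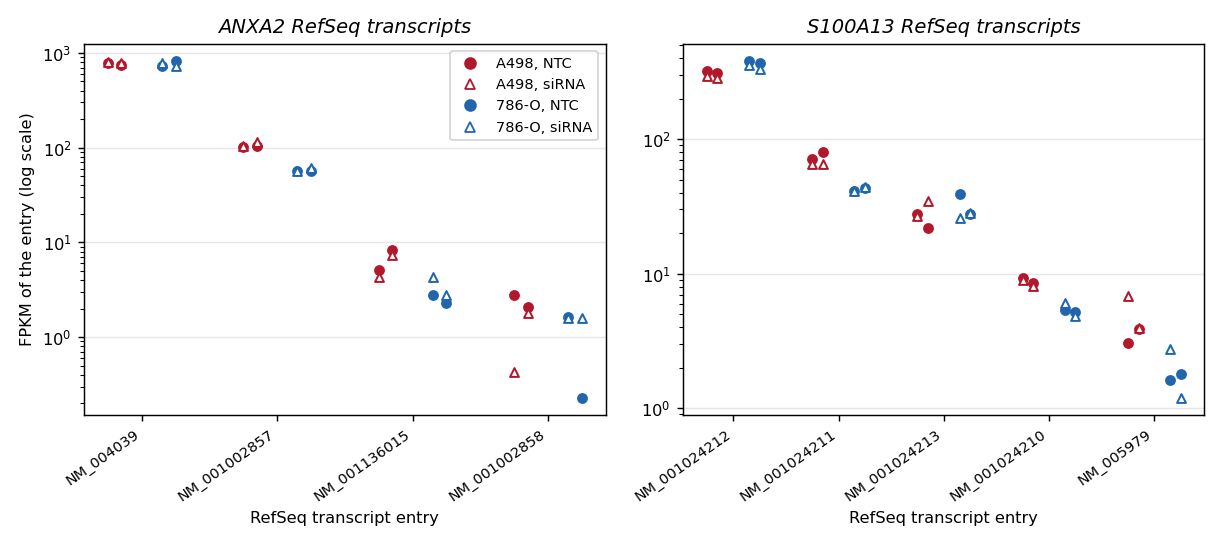
FPKM on a log scale of each RefSeq entry of ANXA2 (left) and S100A13 (right), one point per library, with symbols and colours as for the genes. The main entry of ANXA2 overlaps between the lines and that of S100A13 is lower in all A498 libraries, while NM_001002857 of ANXA2 and NM_001024211, NM_001024210 and NM_005979 of S100A13 are higher in all A498 libraries.

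Some member values may share reads with other loci. The ANXA2 copies ANXA2P2 (840 to 862 FPKM in A498, 759 to 779 FPKM in 786-O), ANXA2P1 (134 to 143 and 123 to 132 FPKM) and ANXA2P3 (92.6 to 98.4 and 86.7 to 90.1 FPKM) were all listed with high values, so the level of ANXA2 is uncertain. Their part in the ANXA2 result was not tested. The library kit does not mark strand, and S100A13 overlaps S100A1 on the other strand, which was at 2.97 ± 0.258 FPKM in A498 and 1.42 ± 0.113 FPKM in 786-O (mean ± SD, n = 4 each), and CHTOP, whose entry NM_015607 was at 33.0 FPKM or lower in A498 and 43.4 to 49.6 FPKM in 786-O.

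Other genes of the same biology were counted from 4 lists. Of 14 other S100 genes in the tables only 3 reached 1 FPKM, and all 3 passed between the lines. S100A3 was higher in A498 (log2 difference 1.59, SE 0.11), as was S100A1 (1.01, SE 0.083), and S100A2 was lower (-0.83, SE 0.050). Of 9 other annexins 6 were tested, of which 1 was higher and 5 lower. ANXA10 was at 3.05 to 3.96 FPKM in A498 and 0.410 to 0.464 FPKM in 786-O (log2 difference 2.72, SE 0.092). ANXA8L1 was at 0.306 FPKM or lower in A498 and 2.73 to 4.67 FPKM in 786-O (log2 difference -4.24, SE 0.35), and it shares near-identical sequence with ANXA8, so the division between them is uncertain. ANXA11 (-0.28, SE 0.046) and ANXA6 (-0.27, SE 0.040) were modestly lower.

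Among 20 partners and membrane repair genes 17 were tested, 7 higher, 8 lower and 2 not passing. The complex of S100A10 and annexin A2 is known as a docking site for plasminogen and its tissue activator at the cell surface. Both plasminogen activators of the list differed strongly. PLAT, the tissue activator, was at 14.1 to 17.2 FPKM in A498 and 0.106 to 0.136 FPKM in 786-O (log2 difference 6.22, SE 0.084), and PLAU, urokinase, was at 1.54 to 1.91 FPKM in A498 and 61.8 to 68.3 FPKM in 786-O (-5.12, SE 0.060). AHNAK2, a relative of the S100A10 partner AHNAK, was higher in A498 (1.09, SE 0.085), whereas AHNAK itself was lower (-0.79, SE 0.066). MYOF, the membrane repair protein myoferlin, was higher in A498 (1.02, SE 0.043). Of 21 other EF-hand genes 19 were tested, 6 higher, 10 lower and 3 not passing. The calcium buffer CALB2 (2.43, SE 0.35) and the Golgi protein NUCB1 (1.14, SE 0.053) were higher in A498, while the actin bundler LCP1 (-1.95, SE 0.11) and the reticulum protein RCN2 (-1.23, SE 0.066) were lower. The largest limma adjusted p of the genes named from these lists was 0.000275.

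The second comparison set the knockdown against NTC, with the 2 siRNAs as replicates of the knockdown. Over both lines, with cell line as a covariate, 0 of the 10 members passed limma's test, as did 0 of all 10503 genes (0%). At an unadjusted p under 0.05 there were 1249 genes and 2 members, S100A13 and S100A6. In A498 alone 0 members and 3 genes (0.0286%) passed, in 786-O alone 0 members and 0 genes (0%), with 639 and 398 genes and 0 members in either at an unadjusted p under 0.05. The difference in the knockdown effect between the lines passed for 1 gene (0.00952%) and for 0 members, with 191 genes and 1 member, S100A4, at an unadjusted p under 0.05.

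S100A13 and S100A6 were lower with both siRNAs than in both NTC libraries, in both lines, and they were the only such members. In all genes tested, 4.97% showed this pattern. S100A13 differed by -0.11 (SE 0.033, 95% confidence interval -0.19 to -0.038, limma adjusted p = 0.343), and S100A6 by -0.094 (SE 0.039, interval -0.18 to -0.0050, limma adjusted p = 0.402), and neither passed. Without the first A498 NTC library, which stood apart, the differences were -0.11 and -0.12. Leaving out any 1 library gave -0.13 to -0.092 for S100A13 and -0.12 to -0.068 for S100A6. The NTC libraries themselves differed in S100A6 by 0.11 on the log2 scale in A498 and 0.13 in 786-O. In S100A13 they differed by 0.030 and 0.065. The fold of a single siRNA library against the NTC mean was 0.889 to 0.947 for S100A13 and 0.918 to 0.952 for S100A6. No member was higher with both siRNAs in both lines, where 6.75% of all genes were.

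Within 1 line, 3 members (ANXA1, ANXA2 and ANXA4) lay above both NTC libraries with both siRNAs in A498 and 3 (S100A4, S100A6 and S100A13) below, where 20.7% and 16.7% of all genes did. In 786-O 3 members (S100A4, S100A10 and S100A11) lay above and 2 (S100A6 and S100A13) below, against 19.0% and 13.8% of all genes. The annexins had limma differences over both lines of 0.047 (SE 0.038) for ANXA1, -0.0046 (SE 0.042) for ANXA2, 0.056 (SE 0.042) for ANXA4 and 0.024 (SE 0.035) for ANXA5. Their 95% confidence intervals all lay between -0.098 and 0.15.

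S100A4 gave opposite values in the lines. With siRNA 1 and siRNA 2 it was at 6.30 and 6.17 FPKM in A498, below both NTC libraries, and at 2.12 and 1.65 FPKM in 786-O, above both. The interaction was -0.48 (SE 0.20, 95% confidence interval -0.93 to -0.031), with an unadjusted p of 0.0388 in limma that became 0.99984 after adjustment. Leaving out 1 library moved it between -0.65 without 786-O siRNA 2 and -0.31 without 786-O siRNA 1. The NTC libraries themselves differed by 0.24 on the log2 scale in A498 and 0.23 in 786-O.

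S100A16 was lowest in the siRNA 2 library of both lines, at 51.9 FPKM in A498 and 391 FPKM in 786-O, while its siRNA 1 libraries lay within the NTC range at 60.4 and 458 FPKM. Over both lines and siRNAs the difference was -0.11 (SE 0.061, limma adjusted p = 0.501), and it was -0.063 without the siRNA 2 library of A498 and -0.061 without that of 786-O. S100A10 (-0.0087, SE 0.032) and S100A11 (0.021, SE 0.030) were close to 0.

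The study's threshold for a change corresponds to 25% higher or 20% lower FPKM. Against the mean of the NTC libraries, 0 members passed it with siRNA 1 or siRNA 2 in A498, where 3.81% and 5.49% of all genes did. In 786-O 1 member, S100A4, passed with siRNA 1 at 1.41-fold and 0 passed with siRNA 2, against 5.91% and 3.92% of all genes. Each of these counts rests on 1 siRNA library and has no test. The NTC libraries of a line differed from each other by more than this threshold in 4.7% of genes in A498 and 4.6% in 786-O.

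**Figure D4:**
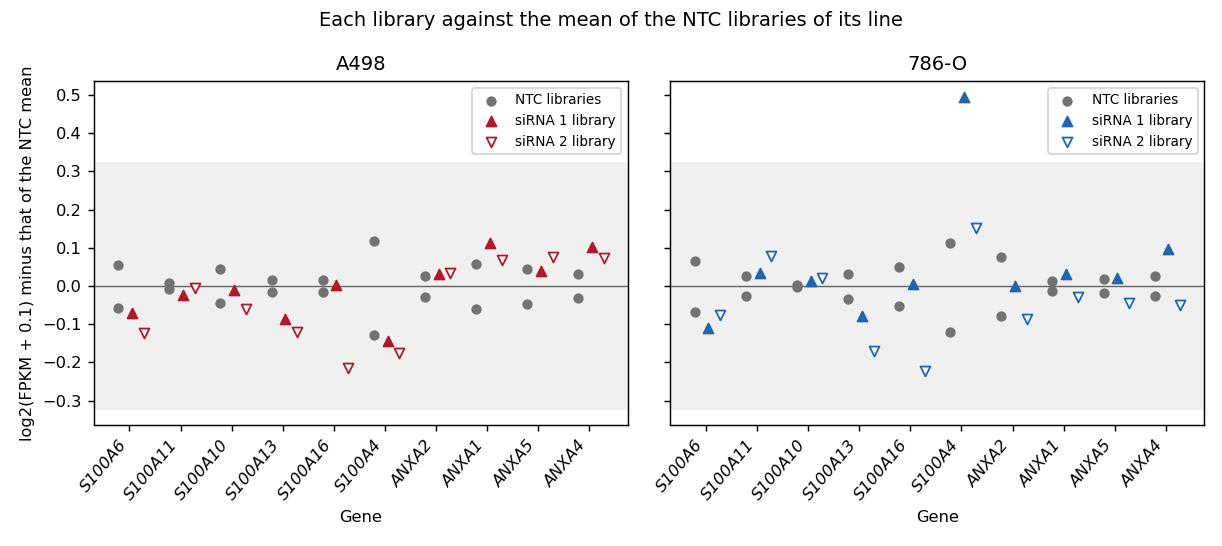
log2(FPKM + 0.1) of each library minus that of the NTC mean of its line, for A498 (left) and 786-O (right), with grey circles for NTC, triangles for siRNA 1 and inverted triangles for siRNA 2, and a grey band from 20% lower to 25% higher. Only S100A4 with siRNA 1 in 786-O, at 0.50, leaves the band.

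No gene of the 4 further lists passed in any knockdown comparison or in the interaction. Over both lines their median differences were -0.078 for the 3 other S100 genes, -0.031 for the 6 other annexins, 0.044 for the 17 partners and 0.016 for the 19 other EF-hand genes on the log2 scale, against 0.0080 for the members.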

How the data were processed

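RNA-seq of 8 libraries of 2 ccRCC lines was examined. The authors deposited 1 table of FPKM values per library, made with Cufflinks from reads mapped to hg19, and the submitters' processing notes name TopHat2 2.0.0 and Cufflinks 2.0.2. The single-end reads and the library kit do not mark strand, no scaling between libraries is given in the sources used here, and levels of short mRNAs depend on the effective length that Cufflinks assumes. No counts were used.

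RefSeq mRNA entries (35951 of 75378 entries) were joined by name and position and given symbols from a RefSeq table of GRCh38.p14, used for names only, of which 97.7% matched. FPKM were summed per symbol, and 0.1 FPKM was added before log2. Genes with a mean of at least 1 FPKM were tested with limma 3.58.1 in R 4.3.3, with a variance trend on mean expression, and p-values were adjusted over all genes by Benjamini-Hochberg at 0.05. A fold on this scale understates the change of low genes. Depth was estimated from the intervals of single-exon genes. The intervals of Cufflinks do not cover the spread between libraries. For genes with several entries they can be wider than counting error would give. NM_001024211 of S100A13 was at 79.6 FPKM in A498 NTC 2, with an interval of 45.1 to 114 FPKM. In A498 NTC 1 it was at 71.3 FPKM, with 66.6 to 76.0 FPKM. Python 3.11.15, numpy 2.4.6, pandas 2.3.3 and matplotlib 3.10.9 were used for the rest.

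The members and the gene lists were chosen with earlier results of these data known. The text names all 10 members, and from each further list the genes with the 4 largest absolute differences between the lines among those that passed, and any gene that passed in a knockdown comparison. The overlapping loci, CD68, the value of AHNAK and the pattern of S100A16 with siRNA 2 were named after their values were seen. The fits were checked on made-up data with known changes before use. Of 200 genes changed 1.25-fold there, 180 were recovered between the lines and 180 for the knockdown over both lines. For the knockdown in A498 alone 102 were recovered, in 786-O alone 113, and for the interaction 35, so small effects can be missed. Alternatives were another pseudocount, filter, scaling, choice of entries and limma setting, a replicate block, and leaving out each library.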

Additional observations from a re-analysis of the deposited data

Results flagged for a closer look

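For each member, and for the members' share of summed FPKM and the ratio of S100A10 to ANXA2, the 4 libraries of each line were examined for a highest or lowest library far from the others by Dixon's rule, which chance alone meets in about 1 of 20 groups. 3 of 24 groups were marked, all in A498. S100A16 was at 51.9 FPKM in the A498 siRNA 2 library, against 59.6 to 60.9 FPKM in the other 3. S100A4 was at 7.58 FPKM in the second A498 NTC library, against 6.17 to 6.38 FPKM. ANXA2 was at 865 FPKM in the same NTC library, against 899 to 902 FPKM. No member's knockdown effect differed between the lines by limma's adjusted test.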

How the results depend on the processing

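Between the lines, 8 members passed with the same direction in all alternatives run (20 for S100A4, whose mean is under 5 FPKM, and 21 for the others), while S100A13 and ANXA2 lost their calls in 11 and 9 of 21. For S100A13 this was so with median-ratio scaling (-0.064), scaling to the same sum (-0.045), NTC libraries only (-0.095), knockdown libraries only (-0.074) and limma without trend. For ANXA2 it was so with the highest entry only (0.026), NTC libraries only (0.072), no filter and limma without trend. The entries NM_001024210 (0.70), NM_001024211 (0.73) and NM_005979 (1.22) went against the sum of S100A13. No member passed in any knockdown comparison or the interaction under any alternative.

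Signs of small knockdown differences over both lines turned in S100A4 with the highest entry (-0.015) and siRNA 2 only (-0.0077), in S100A10 with scaling to the same sum (0.018) and siRNA 1 only (0.0015), in S100A16 with siRNA 1 only (0.0045), and in ANXA2 with scaling to the same sum (0.022) and siRNA 1 only (0.017). Leaving out 1 library gave -0.031 to 0.18 for S100A4, -0.021 to 0.015 for S100A10, -0.028 to 0.034 for ANXA2 and -0.0016 to 0.044 for ANXA5, and with no change of sign 0.014 to 0.068 for ANXA1, 0.0029 to 0.031 for S100A11, -0.15 to -0.061 for S100A16 and 0.033 to 0.091 for ANXA4.

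The number of all genes that passed moved more. Over both lines it was 0, and 1 with NM and NR entries summed, 2 with robust limma, 28 with siRNA 1 and 2 with siRNA 2 only, and 0 to 4 without 1 library. In A498 it was 3, and 0 without a filter, 1 at a mean of 5 FPKM, 20 with NR entries, 19 with robust limma, 1 in the fit of all 8 libraries, and 2 to 156 without 1 library (156 without siRNA 1, 96 without siRNA 2). In 786-O it was 0, and 1 without a filter, 1 at 5 FPKM, 16 with NR entries and 0 to 2 without 1 library. For the interaction it was 1, and 0 with a pseudocount of 1 FPKM, 11 without a filter, 0 at 5 FPKM, 16 with NR entries, 0 with robust limma and 1 to 6 without 1 library. The causes were not tested. The lone library of an arm was assumed to vary like the others.

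The values do not settle whether replicate numbers pair the libraries. Deviations of same-numbered NTC and siRNA libraries correlated at 0.254 in A498 and -0.0312 in 786-O over 10503 genes. Same-numbered libraries of the different lines correlated at -0.256 for NTC and 0.175 for the siRNAs, whose number names the same siRNA in both lines. With the replicate block 8673 genes and 10 members passed between the lines, 0 genes over both lines, 3 in A498, 0 in 786-O and 1 for the interaction, and 0 members in each of the last 4, so it changed no call of a member.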
